A study of Mus musculus with 6 samples.

Results

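The amino acid solute carriers examined here are the genes of the Slc1, Slc3, Slc6, Slc7, Slc36, Slc38 and Slc43 families. They were taken by symbol alone, as every row of the deposited gene table whose name begins with one of these family names and a member number. The rule found 53 of 22354 genes, and 36 of these had enough counts to enter the test, which held 14180 genes. One of the 36, Slc7a6os, is caught by the pattern but is named for its place opposite Slc7a6 and is not a carrier. It stays in the counts and sums below, in which all members are called carriers for short. The RNA came from the colons of 6 C57BL/6J mice, all dissected 1 month after tamoxifen, 3 with the genotype written Smad4Lrig1 and titled knockout and 3 SMAD4+ controls titled wild type. Smad4 carries signals from both TGF-beta and BMP receptors to the nucleus, and Lrig1 marks stem and progenitor cells of the gut epithelium. The labels do not give the construct that drives the deletion or the age and sex of the mice. Crypts had been chelated off and the layer beneath the epithelium scraped from the muscle before RNA was made, and the design text calls this layer stroma.

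Amino acids enter and leave cells through carriers that differ in substrate and in driving force. Some import against a gradient with sodium, chloride or protons, and others exchange an amino acid inside the cell for another outside. The exchangers of the Slc7 light chain group work as pairs with a heavy chain of the Slc3 family, which brings the light chain to the membrane. In gut epithelium, apical carriers take up amino acids from the lumen and basolateral carriers pass them towards the blood, and the colon is known for the broad sodium- and chloride-coupled carrier Slc6a14. Intracellular amino acids are sensed by the kinase complex mTORC1 at the lysosome and by the Gcn2 and Atf4 pathway, which raises several carrier genes when amino acids run short.

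Library totals were between 18918880 and 25867997 counts, and 3 counts correspond to 0.1195 to 0.161 CPM, the usual count scaled to library size, here with sizes corrected by TMM. This limit covers counting error only. The targeted gene Smad4 was at 91.9, 102.1 and 59.0 CPM in the knockout libraries and at 131.6, 152.5 and 110.9 CPM in the wild type libraries (adjusted p = 0.338 with edgeR's quasi-likelihood test). Epithelial markers, not those of stroma, led these libraries. The 15 epithelial markers summed to 37445 to 40513 CPM in knockout and 35077 to 44947 CPM in wild type libraries, against 35.1 to 48.1 CPM in knockout and 23.1 to 27.4 CPM in wild type for 10 fibroblast markers. Wild type library 1 stood apart, with 6 smooth muscle markers at 57.2 CPM in sum, against 14.2 to 15.4 CPM in the knockout libraries and 14.7 and 17.3 CPM in the other wild type libraries. It was the highest or the lowest of the 6 libraries for 22 of the 36 tested carriers (61.1%) and for 51.3% of all tested genes, and results in which it lies far from the other libraries are given with and without it. The 10 B cell markers summed to 83.1 to 181.2 CPM in knockout libraries and 28.8 to 41.1 CPM in wild type libraries, and 10 of 10 passed with DESeq2 (2.18% of all genes given an adjusted p) and 0 of 10 with the quasi-likelihood test (smallest adjusted p = 0.0958). In RNA from a layer of mixed cells, a change in the number of cells of a type and a change in RNA per cell cannot be told apart.

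The sequences upstream of 2 carriers are shown, because Slc3a1 had the smallest p of the carriers and Slc7a11 held a paired amino acid response element by sequence. They are the 250 bases before the RefSeq transcript start (GRCm38.p6), written 5′ to 3′ on the strand of the gene, chr17:85028097-85028346 on the plus strand for Slc3a1 and chr3:50443614-50443863 on the minus strand for Slc7a11. Capitals mark CAAAGTCCA, letters of an element of the HNF4 type, in Slc3a1, and TGATGNAA, the core of the amino acid response element bound by Atf4, in Slc7a11.
Slc3a1: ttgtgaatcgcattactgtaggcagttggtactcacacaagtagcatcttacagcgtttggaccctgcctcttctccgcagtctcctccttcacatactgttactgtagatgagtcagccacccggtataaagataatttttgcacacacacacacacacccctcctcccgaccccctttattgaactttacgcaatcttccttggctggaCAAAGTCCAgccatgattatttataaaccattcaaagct
Slc7a11: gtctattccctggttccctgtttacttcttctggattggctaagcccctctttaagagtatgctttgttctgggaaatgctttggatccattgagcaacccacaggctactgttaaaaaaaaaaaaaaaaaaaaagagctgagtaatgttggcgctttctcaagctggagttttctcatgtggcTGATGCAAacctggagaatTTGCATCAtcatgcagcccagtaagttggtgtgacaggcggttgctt
In Slc7a11 the core occurs once on each strand, close together. Of 32851 such windows in RefSeq, searched on both strands, 3.45% held TGATGNAA, 0.384% held CAAAGTCCA and 0.167% held GTCTAGAC, the palindromic Smad box. Promoter windows were matched by symbol for 39 of the 53 members. TGATGNAA was present for Slc7a11 and Slc7a7, CAAAGTCCA for Slc3a1 alone, and GTCTAGAC for none. The motifs were chosen with the sequences in view, do not overlap each other in the printed windows, and a match describes the letters only.

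The carrier transcript pool was dominated by Slc6a14, the apical carrier of neutral and cationic amino acids. To compare genes, levels were divided by the annotated exon length, giving CPM per kilobase. On this scale Slc6a14 stood at 310.1, 396.7 and 295.6 in knockout libraries and at 276.1, 339.6 and 324.8 in wild type libraries. It made up 45.0% to 50.2% of the summed carrier level in knockout and 41.8% to 49.7% in wild type. Slc6a8, the creatine carrier, came second with a mean of 94.4 ± 24.2 CPM per kilobase in knockout and 103.4 ± 15.3 in wild type (SD, n = 3 each). No library of Slc6a8 reached any library of Slc6a14. The 8 genes with the highest levels held 82.2% to 85.7% of the sum in knockout and 84.8% to 84.9% in wild type.

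The following carriers lay close together. Slc1a5, the sodium-dependent exchanger that brings in glutamine, stood at 31.8 ± 1.48 CPM per kilobase in knockout and 36.5 ± 4.61 in wild type (SD, n = 3 each). Slc38a2, a sodium-coupled importer of small neutral amino acids, stood at 32.8 ± 1.61 in knockout and 31.3 ± 2.33 in wild type. Slc6a6, the taurine carrier, stood at 29.3 ± 5.56 in knockout and 25.9 ± 2.62 in wild type, and Slc36a1, a proton-coupled carrier of lysosomes and the apical membrane, at 21.6 ± 6.23 in knockout and 29.2 ± 10.5 in wild type. The libraries of these neighbours overlapped, so their order is not fixed by these data. Slc38a10, Slc7a7, Slc3a2 and Slc3a1 came next, with means over the 6 libraries of 22.3, 17.8, 17.5 and 16.2 CPM per kilobase. The main neutral amino acid carrier of the small intestine, Slc6a19, was near the bottom of the tested carriers at 0.217 ± 0.0277 in knockout and 0.175 ± 0.0340 in wild type.

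**Figure D1:**
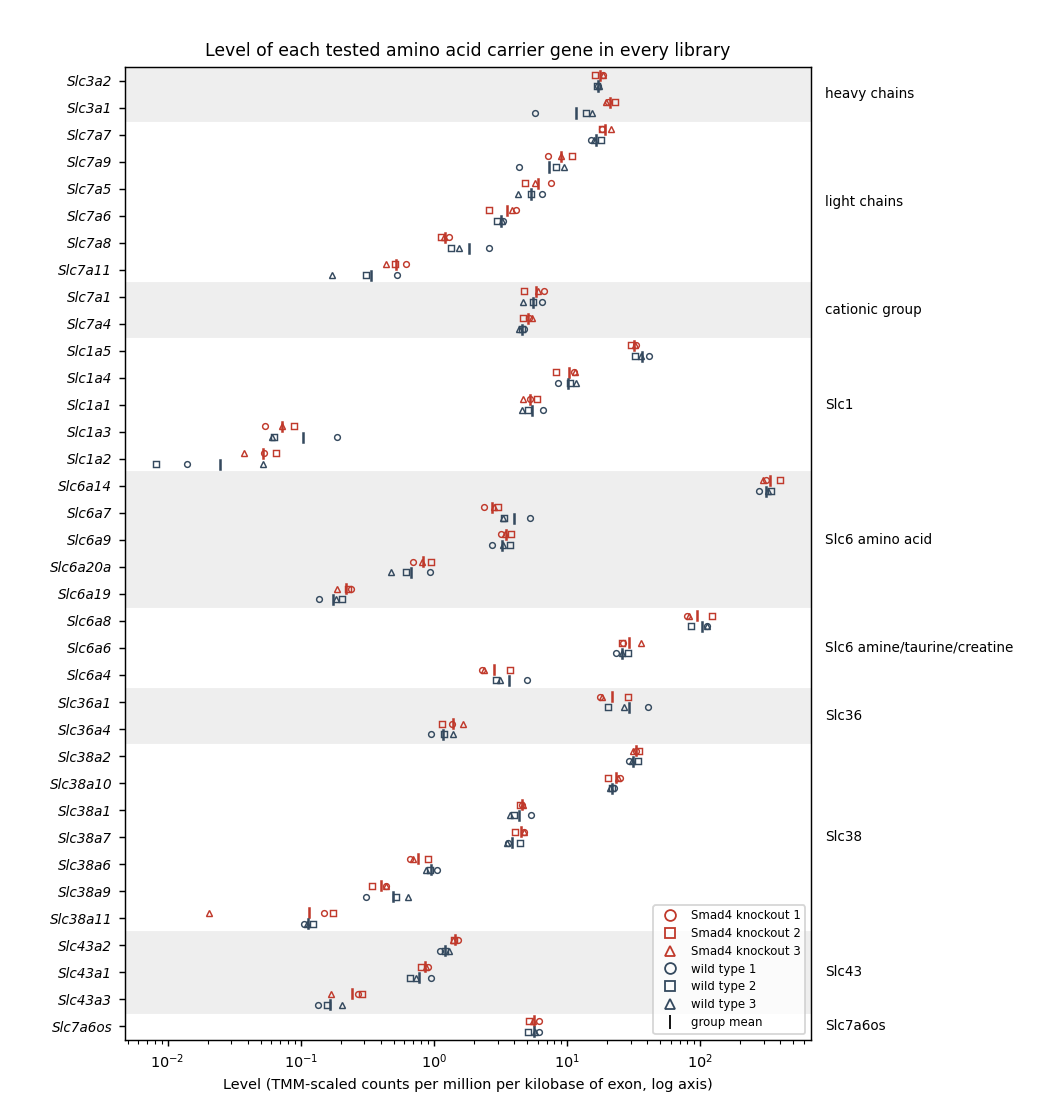
Level of each of the 36 tested genes in every library, in TMM-scaled CPM per kilobase of exon on a log axis, by carrier group, with knockout libraries drawn above wild type and short vertical lines for group means. Slc6a14 and Slc6a8 lie to the right of all others, and wild type library 1 (dark circles) lies apart for Slc3a1, Slc7a9, Slc7a8 and Slc36a1.

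The remaining 17 members did not enter the test. Slc7a2, a cationic amino acid carrier, had the highest counts of these, at 6, 3 and 3 in knockout libraries and 14, 6 and 7 in wild type libraries. Slc6a12, a betaine and GABA carrier, had 1, 1 and 3 counts in knockout libraries and 9, 1 and 7 in wild type libraries. Slc36a2, a proton-coupled carrier of small amino acids, had 4, 8 and 3 counts in knockout libraries and 2, 0 and 1 in wild type libraries. Slc7a15 and Slc6a13 reached 6 and 4 counts in a library, and Slc38a3 reached 3. The 11 others had fewer than 3 counts in every library, among them Slc1a6, Slc6a3, Slc6a15, Slc6a20b, Slc7a3, Slc7a10, Slc7a14, Slc36a3, Slc38a4 and Slc38a8. Slc6a3 is the dopamine carrier of neurons.

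No carrier passed the test of knockout against wild type. Of the 36 tested, 0 had an adjusted p under 0.05 with edgeR's quasi-likelihood test, as for all tested genes (0%), and 0 passed with DESeq2, which called 2.18% of the genes to which it gave an adjusted p. The smallest adjusted p of a carrier was 0.463 with the quasi-likelihood test and 0.125 with DESeq2. At an unadjusted p under 0.05, 2 carriers were higher in knockout (5.19% of all tested genes) and 2 were lower (3.35%), together 4 of 36 or 11.1% against 8.54% of all tested genes. Without knockout library 1 or knockout library 3 this count was 1, and without knockout library 2 or wild type library 2 it was 7. The groups did not overlap for 3 carriers higher and 2 lower in knockout, 13.9% of the carriers, against 6.76% and 6.52% of all tested genes and 13.3% in both directions. A positive log2 fold change was found for 25 of 36 carriers (69.4%) and for 46.9% of all tested genes, with medians of 0.09 and -0.01. The summed level of all members was 3035, 3545 and 3053 CPM in knockout libraries and 3141, 3121 and 3191 CPM in wild type libraries, so the groups overlapped.

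**Figure D2:**
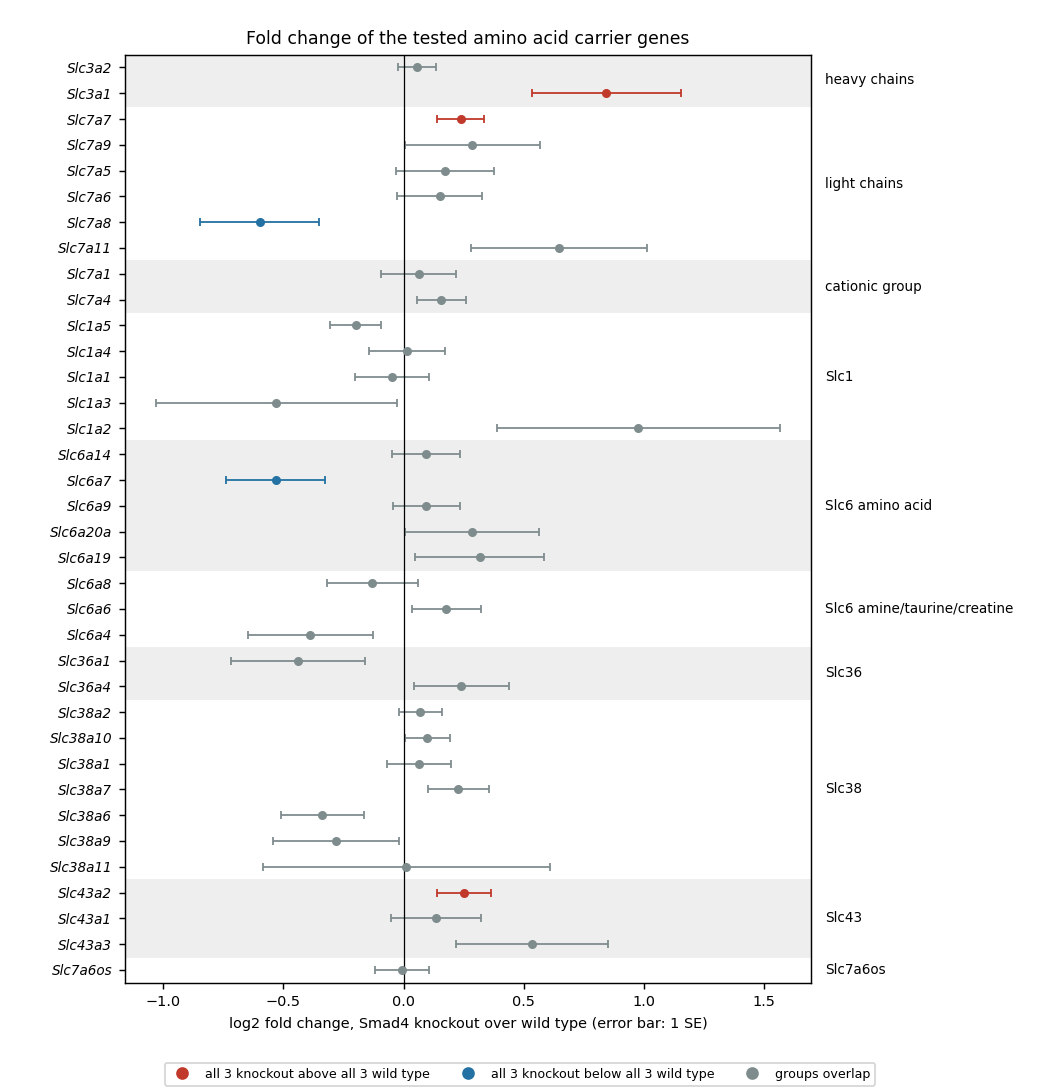
Log2 fold change of knockout over wild type for the 36 tested genes by carrier group, with error bars of 1 SE from the quasi-likelihood fit and colours for whether all 3 libraries of the groups are separate. Slc3a1, Slc7a7 and Slc43a2 are separate and higher in knockout, Slc7a8 and Slc6a7 separate and lower, and no gene passed an adjusted p of 0.05.

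The heavy chain Slc3a1 had the smallest unadjusted p of the carriers. Slc3a1 (ENSMUSG00000024131, chromosome 17, 85028376 to 85064236, plus strand, GENCODE M21 on GRCm38) is the partner of the light chain Slc7a9, with which it forms the apical exchanger that takes up cystine and cationic amino acids. It was at 46.0, 51.5 and 44.3 CPM in the knockout libraries and at 13.02, 31.2 and 34.8 CPM in the wild type libraries. All 3 knockout libraries lay above all wild type libraries, and wild type library 1 was far below the others. The means were 47.3 ± 3.80 CPM in knockout and 26.3 ± 11.7 CPM in wild type (SD, n = 3 each), with a log2 fold change of 0.84 ± 0.31 (SE, unadjusted p = 0.0271, adjusted p = 0.463 with the quasi-likelihood test). Leaving out wild type library 1 gave 0.52 (adjusted p = 0.0874), and over all alternatives the adjusted p was between 0.0874 and 0.703. In the authors' deposited table Slc3a1 has a log2 fold change of 0.68 and an adjusted p of 0.223, under column names that DESeq2 writes. In the annotation, 601 of its 2271 exon bases overlap exons of Prepl on the opposite strand, and no source used here says whether reads were counted by strand. Prepl itself was at 59.8 ± 0.768 CPM in knockout and 55.9 ± 2.40 CPM in wild type, with a log2 fold change of 0.10 ± 0.07. Its groups were also separate and higher in knockout, by a small gap, at 58.9, 60.4 and 60.0 CPM against 53.9, 55.2 and 58.6 CPM.

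The light chain Slc7a9 (chromosome 7, 35448796 to 35466036) also had a positive log2 fold change, with groups that overlapped. It was at 19.1, 29.0 and 24.0 CPM in knockout libraries and at 11.6, 22.2 and 25.3 CPM in wild type libraries. As for Slc3a1, wild type library 1 was the lowest. The log2 fold change of Slc7a9 was 0.29 ± 0.28 (adjusted p = 0.892), 0.02 without wild type library 1 and 0.51 without wild type library 3. On the scale per kilobase, the ratio of Slc3a1 to Slc7a9 within a library was 2.84, 2.09 and 2.17 in knockout libraries and 1.32, 1.66 and 1.62 in wild type libraries. The ratio was higher in every knockout library than in every wild type library, and a two-sided exact permutation test gave p = 0.1, the smallest value that 3 against 3 libraries allow. This ratio was chosen after the values of its members were seen.

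The heavy chain Slc3a2, the partner of most other light chains, had the smallest span over the 6 libraries of the tested carriers. It was at 65.7, 57.1 and 65.5 CPM in knockout libraries and at 60.0, 59.5 and 61.7 CPM in wild type libraries. The highest library exceeded the lowest 1.15-fold, against 3.96-fold for Slc3a1. The log2 fold change of Slc3a2 was 0.06 ± 0.08 (adjusted p = 0.936).

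The light chains differed in direction. Slc7a7 (chromosome 14, 54369442 to 54417780, minus strand), the basolateral exchanger that exports cationic amino acids, was at 60.4, 60.2 and 70.9 CPM in knockout libraries and at 50.2, 59.1 and 53.2 CPM in wild type libraries. Every knockout library was above every wild type library, although the nearest libraries differed by little. Its log2 fold change was 0.24 ± 0.10 (unadjusted p = 0.0420, adjusted p = 0.549). With a library left out it was 0.166 to 0.303, lowest without knockout library 3 (unadjusted p = 0.147, quasi-likelihood test). In the annotation, 232 of the 3315 exon bases of Slc7a7 overlap exons of Oxa1l on the opposite strand. Oxa1l was at 77.7 ± 2.31 CPM in knockout and 82.2 ± 5.94 CPM in wild type, with a log2 fold change of -0.08 ± 0.08. Slc7a7 is also known from macrophages, and the 10 macrophage markers summed to 222.8, 173.2 and 188.7 CPM in knockout libraries and to 198.1, 137.3 and 141.8 CPM in wild type libraries, most of it from Cd14, whose log2 fold change was 0.02 ± 0.19. Without Cd14, a choice made after seeing the data, the other 9 summed to 80.2, 68.3 and 37.3 CPM in knockout libraries and to 31.0, 28.6 and 24.98 CPM in wild type libraries, so the groups were separate. Much of this sum came from Lyz2, at 47.5, 37.7 and 16.2 CPM in knockout libraries and at 9.63, 12.8 and 8.96 CPM in wild type libraries. Taken singly, 2 of the 9 tested macrophage markers (22.2%) were separate between groups, against 13.3% of all tested genes. All 9 tested markers had a positive log2 fold change (median 1.04). An unadjusted p under 0.05 was found for 5, against 8.54% of all tested genes, and 0 passed the adjusted threshold of the quasi-likelihood test. Lyz2 passed with DESeq2 (adjusted p = 3.7e-05), and all 10 markers had counts in every library. Slc7a7 was highest in knockout library 3, at 70.9 CPM. Among the knockout libraries, the sum without Cd14 was lowest there, at 37.3 CPM. The part of macrophages in the Slc7a7 values was not tested.

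Slc7a8 (chromosome 14, 54722209 to 54781946, minus strand), the basolateral exchanger of neutral amino acids, was at 6.48, 5.70 and 5.99 CPM in knockout libraries and at 12.97, 6.76 and 7.77 CPM in wild type libraries. All knockout libraries were lower, and wild type library 1 was well above the rest. Slc7a8 had a log2 fold change of -0.60 ± 0.25 (unadjusted p = 0.0424, adjusted p = 0.550), and -0.26 without wild type library 1. Slc7a11 (chromosome 3), the cystine and glutamate exchanger whose upstream sequence is shown above, was at 8.64, 7.12 and 6.03 CPM in knockout libraries and at 7.29, 4.30 and 2.39 CPM in wild type libraries. The groups overlapped through wild type library 1. The log2 fold change of Slc7a11 was 0.65 ± 0.37 (adjusted p = 0.742), and 1.14 without wild type library 1, with an adjusted p of 0.132. It was 0.32 without wild type library 3, with an adjusted p of 0.842. Slc7a5, the exchanger of large neutral amino acids, was at 22.4 ± 5.15 CPM in knockout and 19.9 ± 4.16 CPM in wild type (SD, n = 3 each). Its difference was smaller than the spread between libraries (log2 fold change 0.17 ± 0.20).

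**Figure D3:**
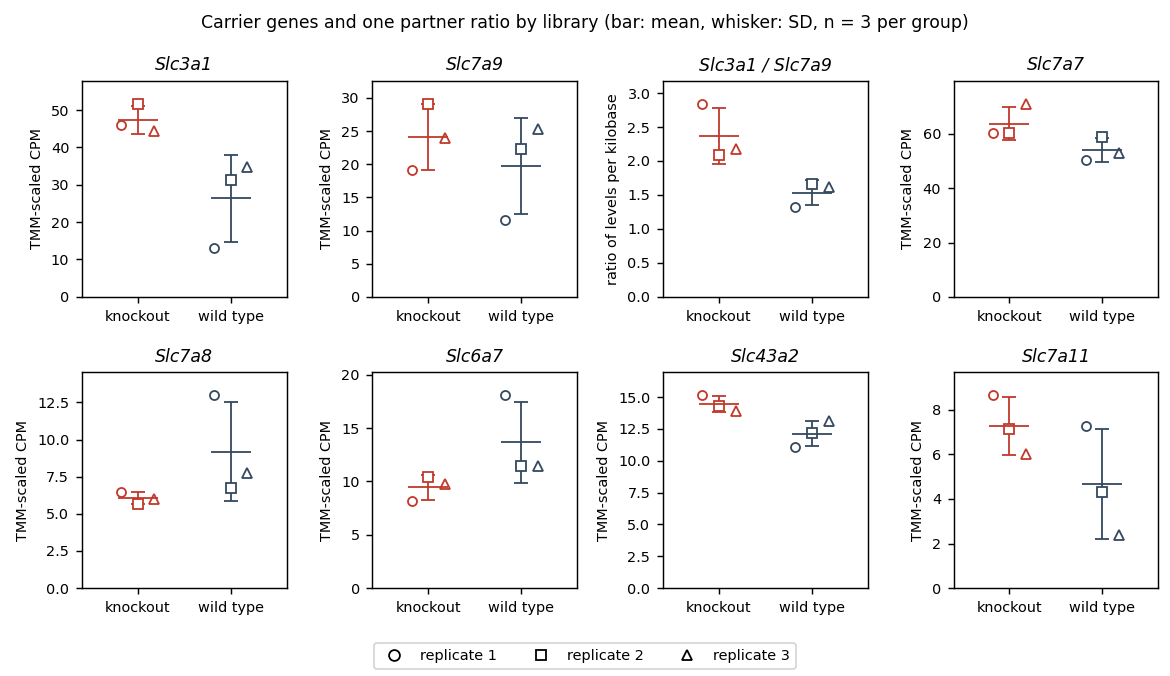
Level of 7 carriers in TMM-scaled CPM, and the ratio of Slc3a1 to Slc7a9 per kilobase, in the 3 knockout and 3 wild type libraries, with the mean as a bar and the SD as a whisker. Slc3a1, Slc7a7, Slc43a2 and the ratio are separate and higher in knockout, Slc7a8 and Slc6a7 are separate and lower, and Slc7a9 and Slc7a11 overlap. Wild type library 1 (circle) is lowest for Slc3a1 and Slc7a9 and highest for Slc7a8 and Slc6a7.

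Among the remaining carriers of cationic amino acids, Slc7a1, the widely used uniporter, was at 67.1 ± 11.6 CPM in knockout and 64.3 ± 10.2 CPM in wild type (SD, n = 3 each). Its log2 fold change was 0.06 ± 0.16 (adjusted p = 0.964). Slc7a4, placed in this group by sequence, had a log2 fold change of 0.16 ± 0.10. Of the 2 tested genes of the group, 0 passed in either direction.

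Of the 5 tested Slc1 carriers, 2 had a positive and 3 a negative log2 fold change. An unadjusted p under 0.05 was found for 0 of them, against 8.54% of all tested genes. Slc1a5 was at 137.5, 125.8 and 134.9 CPM in knockout libraries and at 173.0, 135.0 and 149.2 CPM in wild type libraries. The groups overlapped, since knockout library 1 lay above wild type library 2, with a log2 fold change of -0.20 ± 0.11 (adjusted p = 0.705), and -0.09 without wild type library 1. The glutamate carrier Slc1a3 had 10, 16 and 14 counts in knockout libraries and 35, 10 and 13 in wild type libraries, so its highest value lay in the wild type library that was also highest for the smooth muscle markers. Its log2 fold change was -0.53 ± 0.50, and 0.22 ± 0.39 without that library, the opposite sign. The part of muscle RNA in that value was not tested.

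Of the 5 tested Slc6 amino acid carriers, Slc6a7 had an unadjusted p under 0.05 (8.54% of all tested genes). Slc6a7, known as the proline carrier of the brain, was at 8.18, 10.4 and 9.72 CPM in knockout libraries and at 18.1, 11.5 and 11.4 CPM in wild type libraries. All knockout libraries were lower, by a small gap to wild type libraries 2 and 3. Slc6a7 had a log2 fold change of -0.53 ± 0.21 (unadjusted p = 0.0328, adjusted p = 0.507), and -0.28 without wild type library 1. Slc6a14, the most abundant carrier, had a log2 fold change of 0.09 ± 0.14 (adjusted p = 0.941), with 1065, 1362 and 1015 CPM in knockout libraries and 948.0, 1166 and 1115 CPM in wild type libraries. Its groups overlapped throughout, and without knockout library 2 the log2 fold change was -0.05. Slc6a19 and the imino acid carrier Slc6a20a had log2 fold changes of 0.32 ± 0.27 and 0.28 ± 0.28. Without wild type library 1 these were 0.18 and 0.60, and without wild type library 3 that of Slc6a20a was 0.079. Slc6a20a and Slc6a20b are close copies, so reads could be shared between them.

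The Slc6 carriers of amines, taurine and creatine overlapped between groups. Slc6a8 was at 413.0, 637.4 and 425.7 CPM in knockout libraries and at 583.5, 446.7 and 585.5 CPM in wild type libraries. Each group held both high and low libraries, and the log2 fold change of Slc6a8 was -0.13 ± 0.19 (adjusted p = 0.937). It was -0.36 without knockout library 2 and -0.019 without knockout library 1. Slc6a6 had a log2 fold change of 0.18 ± 0.14, and 0.02 without knockout library 3, its highest. Slc6a4, the serotonin carrier that clears serotonin released in the gut mucosa, had -0.39 ± 0.26, and -0.11 without wild type library 1.

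The proton-coupled carrier Slc36a1 had the widest span over libraries, 2.33-fold, of the 8 carriers with the highest levels. It was at 98.5, 161.6 and 103.6 CPM in knockout libraries and at 229.1, 113.9 and 149.9 CPM in wild type libraries. Knockout library 2 lay within the wild type range. For Slc36a1 the log2 fold change was -0.44 ± 0.28 (adjusted p = 0.786), -0.12 without wild type library 1 and -0.70 without knockout library 2.

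The Slc38 carriers did not separate the groups. Slc38a2 was at 290.0, 304.5 and 276.1 CPM in knockout libraries and at 258.6, 299.0 and 272.0 CPM in wild type libraries, a 1.18-fold span. Its log2 fold change was 0.07 ± 0.09 (adjusted p = 0.922). Of the 7 tested Slc38 genes, 5 had a positive log2 fold change and 0 an unadjusted p under 0.05. Over all tested genes these shares were 46.9% and 8.54%. Slc38a7, a glutamine exporter of lysosomes, had 0.23 ± 0.13, the poorly characterised Slc38a6 -0.34 ± 0.17 and Slc38a10 0.10 ± 0.09. Slc38a9, the lysosomal arginine sensor of mTORC1, was at 6.73 ± 0.896 CPM in knockout and 8.18 ± 2.80 CPM in wild type (SD, n = 3 each), with a log2 fold change of -0.28 ± 0.26, and -0.52 without wild type library 1.

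The 3 Slc43 genes all had positive log2 fold changes (46.9% of all tested genes), and Slc43a2 was separate between groups (13.3%). Slc43a2 (chromosome 11, 75531694 to 75577575, plus strand), a basolateral uniporter of large neutral amino acids, was at 15.1, 14.3 and 13.9 CPM in knockout libraries and at 11.1, 12.2 and 13.1 CPM in wild type libraries. The nearest libraries of the groups were close. Its log2 fold change was 0.25 ± 0.11 (unadjusted p = 0.0561, adjusted p = 0.602). Slc43a3, a carrier of purine nucleobases, had 0.53 ± 0.32, with groups that overlapped.

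Other genes of amino acid handling were counted from 5 lists, and 0 passed the quasi-likelihood test over all genes. In the list of amino acid carriers of other families, 1 of 16 tested genes was higher and 1 lower in knockout at an unadjusted p under 0.05, against 5.19% and 3.35% of all tested genes. The lysosomal cystine exporter Ctns was at 20.8, 26.2 and 23.1 CPM in knockout libraries and at 30.02, 27.7 and 29.7 CPM in wild type libraries (log2 fold change -0.32 ± 0.11, adjusted p = 0.363). Slc15a3, a lysosomal peptide carrier of immune cells, was at 1.98, 1.71 and 0.355 CPM in knockout libraries and at 0.275, 0.483 and 0.518 CPM in wild type libraries. Slc15a3 was high in the same 2 knockout libraries as the B cell markers, which summed to 168.2, 181.2 and 83.1 CPM in knockout. Knockout library 3 was also the lowest of the knockout libraries for 10 T cell markers, at 52.4, 40.1 and 30.7 CPM in sum. The same held for the sum of the macrophage markers without Cd14, a choice made after seeing the data. With Cd14 the sum was lowest in knockout library 2, at 222.8, 173.2 and 188.7 CPM in knockout libraries. Taken singly, Cd68 and Itgam were also lowest in knockout library 2, and Mrc1 in knockout library 1. The part of immune cells in the Slc15a3 values was not tested. The log2 fold change of Slc15a3 was 1.64 ± 0.61 (adjusted p = 0.478), and 2.11 without knockout library 3, with an adjusted p of 0.0343. That library was its lowest in knockout, and leaving it out gave 266 calls over all genes, against 0 with all 6 libraries. Slc15a3 had 43, 36 and 8 counts in knockout libraries and 6, 9 and 13 in wild type libraries. The apical peptide carrier Slc15a1 had -0.50 ± 0.23.

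Among brush border partners and peptidases, 1 of 9 tested genes had an unadjusted p under 0.05, against 8.54% of all tested genes. This was Xpnpep2, an aminopeptidase for bonds next to proline. It was at 10.2, 8.83 and 12.5 CPM in knockout libraries and at 5.68, 7.14 and 8.01 CPM in wild type libraries (log2 fold change 0.60 ± 0.19, adjusted p = 0.318). Mep1b, a subunit of the metalloendopeptidase meprin, was at 332.8, 349.3 and 328.6 CPM in knockout libraries and at 145.8, 269.6 and 309.1 CPM in wild type libraries. Its libraries had the shape seen for Slc3a1, separate groups with wild type library 1 far below the rest, and its log2 fold change was 0.48 ± 0.24 (adjusted p = 0.677), and 0.22 without that library.

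The mTORC1 sensing list had 0 of 29 tested genes with an unadjusted p under 0.05 (8.54% of all tested genes). Its median log2 fold change was 0.01. Sesn3, Lamtor2 and Nprl2 had the smallest p, with 0.24 ± 0.12, -0.12 ± 0.08 and -0.16 ± 0.11. In the Gcn2 and Atf4 response list, 1 of 24 tested genes was higher at an unadjusted p under 0.05 and 0 lower. Of all tested genes, 5.19% were higher and 3.35% lower by this rule. The 1 list gene was Ddit4, a stress-inducible inhibitor of mTORC1. It was at 94.1, 75.0 and 89.8 CPM in knockout libraries and at 61.3, 62.1 and 50.1 CPM in wild type libraries. Ddit4 was higher in every knockout library, with a log2 fold change of 0.58 ± 0.12. It rose by DESeq2 (adjusted p = 0.00283) and by the edgeR exact test (adjusted p = 0.00306), and did not pass with the quasi-likelihood test (adjusted p = 0.122). DESeq2 called 2.18% of the genes to which it gave an adjusted p. Gpt2 and Vldlr, the next by p, had log2 fold changes of -0.27 ± 0.13 and 0.19 ± 0.11, and the median over the 24 genes was 0.03.

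In the list of glutamine, arginine and branched chain metabolism, 3 of 20 tested genes were lower in knockout at an unadjusted p under 0.05 and 0 were higher (3.35% and 5.19% of all tested genes). The median over the 20 was -0.13 on the log2 scale. Bcat2, the mitochondrial aminotransferase of branched chain amino acids, was at 53.9, 38.7 and 40.8 CPM in knockout libraries and at 56.2, 60.7 and 64.6 CPM in wild type libraries. Its groups were separate (log2 fold change -0.44 ± 0.13, adjusted p = 0.287). The urea cycle enzymes Cps1 and Otc had -0.96 ± 0.30 and -0.63 ± 0.21, with adjusted p-values of 0.313 and 0.370. Cps1 was at 6.07, 10.8 and 7.41 CPM in knockout libraries and at 22.4, 12.7 and 12.03 CPM in wild type libraries, with the highest value again in wild type library 1, and its log2 fold change was -0.61 without that library.

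**Figure D4:**
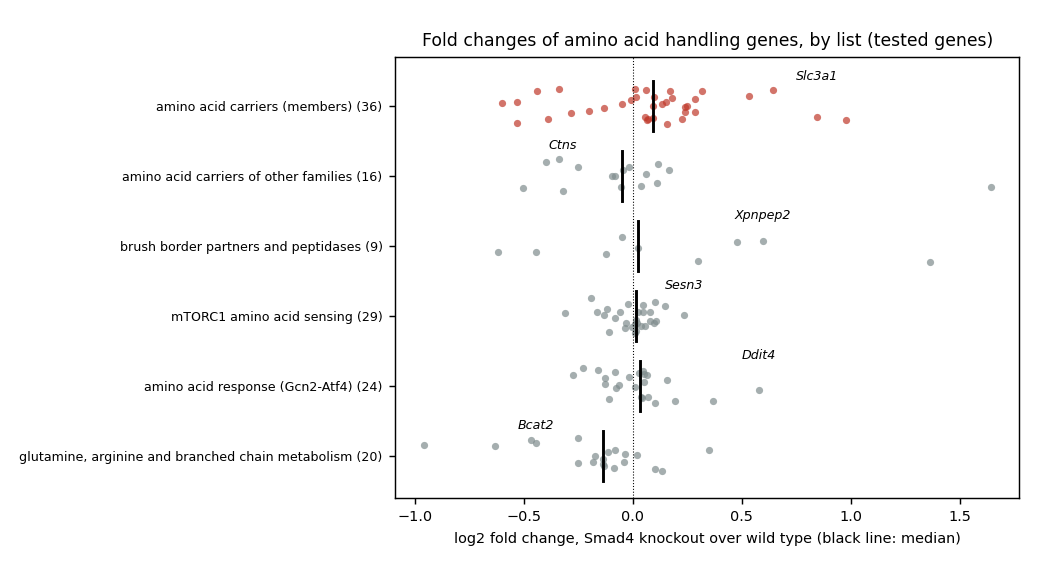
Log2 fold change of knockout over wild type for each tested gene of the amino acid carriers and of 5 lists of amino acid handling genes, with black lines at the medians, the number of tested genes in brackets and the gene of smallest p named. The medians lie between -0.13 and 0.09, and vertical scatter within a list carries no meaning.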

How the data were processed

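The libraries, 3 per group, are RNA-seq of mouse colon layers, and replicates are separate mice per the labels. Per the design text deposited with the labels, single-end reads of 51 bases were mapped to mm10 with TopHat 2.1.0, counted over genes with HTSeq 0.5.4p5 and samtools 1.3.1, and analysed in edgeR 3.4.2. Bowtie 0.12.2, with mm8 beside mm10, comes from the submitters' processing notes. The 6 library columns hold raw whole-number counts, deposited by the authors without scaling. Per the file headers, the authors also deposited a mean normalised signal, a log2 fold change, its standard error, a test statistic (a score), a p-value and an adjusted p-value. The log2 fold change and adjusted p-value are printed for Slc3a1 only. These columns carry names that DESeq2 writes, while the design text names edgeR.

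Counts were scaled by TMM, filtered with filterByExpr and tested in edgeR 4.0.16 (R 4.3.3) by its quasi-likelihood F test, group as the sole term, with Benjamini-Hochberg adjustment over 14180 genes and a threshold of 0.05. The SE is the size of the log2 fold change over the square root of F. Exon lengths and coordinates came from GENCODE M21, which held 21925 of 22354 gene IDs and all 53 members. Named carriers were 16 fixed ones, the 10 with the smallest p and the 8 with the highest level per kilobase, 22 in all, and up to 3 genes of each list by p, apart from items not reported here. Slc1a3, Slc6a4, Slc7a4, Slc38a9, the carriers named as untested, Prepl and Oxa1l were added with their values in view. Members and lists were chosen with earlier results of these data known. Replicates of a group differed by more than counting noise. The alternatives were other scalings and filters, limma-voom (limma 3.58.1), DESeq2 1.42.0, the exact test of edgeR, a replicate block and leaving out each library.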

Additional observations from a re-analysis of the deposited data

How the results depend on the processing

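No carrier passed an adjusted p of 0.05 under any alternative run. Of 308 combinations of a named carrier and an alternative, 304 kept direction and side of the threshold. The 4 reversals were Slc7a5 without knockout replicate 1 (log2 fold change -0.022, with 0.34 the highest with a library left out), Slc6a14 without knockout replicate 2 (-0.0495, highest 0.183), and Slc7a1 without wild type replicate 3 (-0.0495) and without knockout replicate 1 (-0.0473, highest 0.194). Their main values lie within 1 SE of 0. Carriers at an unadjusted p under 0.05 numbered 1 to 7 when a library was left out, against 4. Over all genes, the count of calls was 0 in the quasi-likelihood test, 157 with no low-count filter, 336 with DESeq2, 381 with the edgeR exact test and 0 to 266 with a library left out, with 17 without wild type replicate 1 and 266 without knockout replicate 3. Over the 5 lists of amino acid handling genes, the count was 0, and 1 with no low-count filter, with DESeq2 and with the exact test (Ddit4 each time), and 0 to 1 with a library left out (Slc15a3). The cause of these differences was not tested. With the replicate number as a replicate block, 0 genes, 0 carriers and 0 list genes were called, and 4 carriers had an unadjusted p under 0.05. The deviations of same-numbered libraries correlated at -0.052, -0.143 and 0.143, and not every library correlated best with its own number. With 3 libraries per group, these correlations cannot decide whether the numbers pair the samples. The block moved single carriers. Slc7a11 had an unadjusted p of 0.0206 with it (adjusted p = 0.408) and 0.117 without it, both by the quasi-likelihood test. At these depths 11 carriers, with fewer than 3 counts in every library, could not be compared.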

Other observations

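Other ratios between carriers within a library, chosen after their values were seen, are given on the scale of CPM per kilobase. The ratio of Slc7a7 to Slc7a8 was 14.1, 16.0 and 17.9 in knockout libraries and 5.85, 13.2 and 10.3 in wild type libraries, with the lowest value in wild type library 1. The ratio of Slc3a2 to the sum of its light chains Slc7a5, Slc7a6, Slc7a7, Slc7a8, Slc7a10 and Slc7a11 was 0.585, 0.594 and 0.569 in knockout libraries and 0.606, 0.606 and 0.693 in wild type libraries. Both ratios were separate between groups, with two-sided exact permutation p = 0.1 each, the smallest value 3 against 3 libraries allow, over 4 ratios computed. The ratio of Slc3a2 to Slc3a1 was 0.919, 0.713 and 0.952 in knockout libraries, where Slc3a1 was the higher of the heavy chains, and 2.97, 1.23 and 1.14 in wild type libraries, where Slc3a2 was. In CPM, not divided by exon length, Slc3a2 was the higher in all 6 libraries. The order in knockout thus rests on the annotated lengths, 3.529 kilobases for Slc3a2 and 2.271 for Slc3a1. In Slc3a1, 601 of these bases overlap exons of Prepl.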
